A study of Homo sapiens with 29 samples.

Results

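The genes described here are 10 of the 28266 gene symbols in the count table: ACTA2, ACTG2, TAGLN, CNN1, MYL9, MYH11, TPM1, TPM2, CALD1 and LMOD1. They were chosen by name as the smooth muscle type contractile genes that the transcription factor SRF drives. Earlier results of these data were known when they and the other gene lists were chosen. Smooth muscle cells and myofibroblasts pull on their surroundings with bundles of actin and myosin. In these cells SRF binds a short DNA motif called the CArG box in the promoters of contractile genes and switches them on together with a cofactor of the myocardin family. Fibroblasts take on part of the same gene set when they become myofibroblasts, the cells that close wounds and stiffen scarred lung.

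RNA was sequenced from IMR90 ER:RAS cells, which are human lung fibroblasts altered by retroviral infection with the vector pLNC ER:RAS-neo, which encodes a fusion of the estrogen receptor and RAS (labelled RASG12V). All 3 groups carried this fusion, were transfected with siRNA the day before induction and were collected on day 7. DMSO_siNT received solvent and non-targeting siRNA (siNT 2 or siNT 4). 4OHT_siNT received 4-hydroxytamoxifen (4OHT), which turns the fusion on and induces senescence, with the same non-targeting siRNAs. 4OHT_siSMARCA4 received 4OHT with siRNA against SMARCA4 (siSMARCA4_2 or siSMARCA4_4), an ATPase of the SWI/SNF chromatin remodelling complex. Each group held 6 libraries, and nothing in the labels says whether these were separate cultures, so p-values measure the spread between libraries only. Neither the sources used here nor the labels say whether the line is 1 clone.

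Libraries held 9657309 to 18039313 counts. SMARCA4 itself stood at 217 counts-per-million (CPM) in DMSO_siNT, 301 in 4OHT_siNT and 99.03 in 4OHT_siSMARCA4, a log2 difference of -1.61 ± 0.14 (SE) between the last 2 groups (edgeR adjusted p = 1.3e-06). All 6 libraries of 4OHT_siNT carried set names ending in VM, whereas the other groups mixed V and VM sets, whose meaning is not stated. One library of 4OHT_siSMARCA4 is called unlabelled because its column names siRNA 2 and set 1VM, a pair that no sample title has. It was counted among siRNA 2 libraries but in no set except where stated. Another library, DMSO_siNT replicate 4-2V (siNT 4, set 2V), stood apart, with the lowest total count and the most genes detected, 17915. All 9 fibroblast markers looked at, such as COL1A1 and VIM, passed the filter on low counts, while all 7 striated muscle markers and all 4 epithelial markers did not.

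The contractile genes took a smaller share of the RNA of senescent cells than of growing cells. The 10 genes together took 0.641% to 1.55% of all counts per library of DMSO_siNT, 0.381% to 0.480% of those of 4OHT_siNT and 0.284% to 0.511% of those of 4OHT_siSMARCA4, so the DMSO_siNT libraries lay above all others. The mean share was 0.987% ± 0.319 (SD, n = 6) in DMSO_siNT, 0.426% ± 0.041 in 4OHT_siNT and 0.417% ± 0.084 in 4OHT_siSMARCA4. TPM2 had the highest mean CPM of the 10 genes in every group, so it weighs most in this share. The 1.55% is that of DMSO_siNT replicate 4-2V, in which TPM2 alone held 98941 of 9657309 counts. In bulk RNA, fewer cells with a contractile program and less contractile RNA per cell cannot be told apart.

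MYH11, the smooth muscle myosin heavy chain, was barely detected and was the only 1 of the 10 that did not pass the filter. Its counts per library were 1 to 5 with DMSO, 0 to 8 in 4OHT_siNT and 0 to 1 in 4OHT_siSMARCA4, too few for a test. Differences in it were therefore not detectable at this depth. DES (desmin), another marker of mature smooth muscle, did not pass the filter either. The other 9 genes went through edgeR's quasi-likelihood fit of 13136 genes, and those with a p under 0.05 after adjustment over the whole fit are referred to as called.

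**Figure D1:**
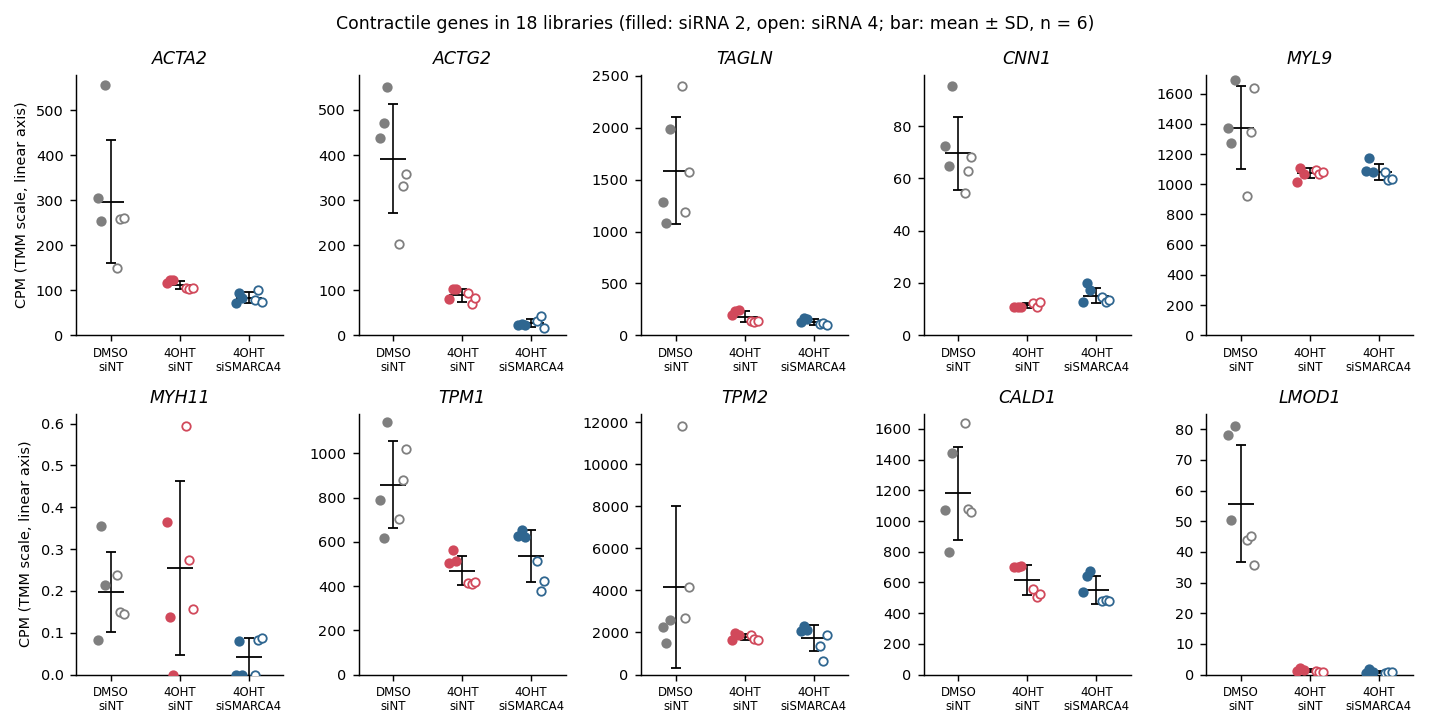
Each panel plots 1 contractile gene, with CPM on a linear axis that starts at 0 and the 3 groups along the bottom. Points are libraries, filled for siRNA 2 and open for siRNA 4, and bars are the mean ± SD (n = 6). ACTG2 forms 3 separate levels, whereas MYL9 stays between 926 and 1689 CPM throughout and MYH11 stays under 0.594 CPM.

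The smooth muscle actins were lower in senescence, and ACTG2 was lower again with SMARCA4 siRNA. ACTA2, on the minus strand at chr10:88935074-88991339 (GRCh38), encodes alpha smooth muscle actin, the usual marker of the myofibroblast. Its lowest, median and highest levels were 149, 260 and 555 CPM in DMSO_siNT, 104, 110 and 123 CPM in 4OHT_siNT, and 70.7, 80.6 and 102 CPM in 4OHT_siSMARCA4. Every 4OHT_siNT library lay below every DMSO_siNT library, and every 4OHT_siSMARCA4 library lay below every 4OHT_siNT library. 4OHT_siNT was lower than DMSO_siNT by -1.41 ± 0.21 on the log2 scale (adjusted p = 1.42e-05), which left 37.8% of the DMSO_siNT mean. The further difference with SMARCA4 siRNA, -0.42 ± 0.21, did not pass the test (adjusted p = 0.212), although it did in a fit of those 2 groups alone (adjusted p = 0.0032, with 0.0032 to 0.826 over 28 alternatives).

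ACTG2, at chr2:73892314-73919865 on the plus strand, encodes the gamma smooth muscle actin of gut and other visceral muscle. Its lowest, median and highest levels were 203, 398 and 552 CPM in DMSO_siNT, 68.2, 88.2 and 103 CPM in 4OHT_siNT, and 16.2, 24.3 and 42.0 CPM in 4OHT_siSMARCA4. None of the 3 groups overlapped with another. The fall from DMSO_siNT to 4OHT_siNT was -2.15 ± 0.23 (log2, adjusted p = 1.75e-07). SMARCA4 siRNA left 30.1% of the 4OHT_siNT mean, a log2 difference of -1.73 ± 0.23 (adjusted p = 9.56e-05). The knockdown difference was -2.02 in libraries with siRNA 2 (adjusted p = 1.56e-06) and -1.48 in those with siRNA 4, where it did not pass the test (adjusted p = 0.164). It passed in 27 of 28 alternatives. Those 2 values differed from each other by 0.53 ± 0.38 (log2, adjusted p = 0.858 for the interaction).

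ACTA2, ACTG2 and the striated muscle actins ACTA1 and ACTC1 have nearly identical coding sequences, and how reads that match several of them were counted is not stated. The levels of these actins are therefore uncertain to that extent. All 7 striated muscle markers together, ACTA1 and ACTC1 among them, summed to between 0.998 and 2.499 CPM in DMSO_siNT libraries, between 0.291 and 1.09 in 4OHT_siNT and between 0.0825 and 1.04 in 4OHT_siSMARCA4. ACTA2 also overlaps the genes STAMBPL1, FAS and ACTA2-AS1 on the other strand, and whether counting used strand is not stated. ACTA2-AS1, an antisense RNA with at most 296 counts in a library, was lower in 4OHT_siNT by -1.90 ± 0.59 (log2, adjusted p = 0.0106), and its part in the ACTA2 counts was not tested.

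RefSeq promoter windows (build GRCh38.p14, 250 bases before to 50 bases after a start) were at hand for 7 of the 10 genes, with 12 windows in all, and were searched on both strands for the CArG box. The motif was found in 1 of the 12 windows, that of ACTG2, and in 454 of all 35116 windows (1.29%). A match with 1 G or C among the 6 middle bases was found in 2 of the 12, at ACTA2 and CALD1, and in 6.94% of all windows. The stretches of the actins are shown, with the matches in capitals, 5′ to 3′ on the gene's strand. That of CALD1, whose match begins 26 bases before the start of 1 of its 4 windows, is not shown. That window, chr7:134711249-134711548, lies upstream of the CALD1 gene position given below, which begins at 134744252.
ACTG2, plus strand, chr2:73892858-73892984: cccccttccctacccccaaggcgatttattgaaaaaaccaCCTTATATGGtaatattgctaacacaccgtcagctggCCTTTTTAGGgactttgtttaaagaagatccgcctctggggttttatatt
ACTA2, minus strand, chr10:88952795-88952934: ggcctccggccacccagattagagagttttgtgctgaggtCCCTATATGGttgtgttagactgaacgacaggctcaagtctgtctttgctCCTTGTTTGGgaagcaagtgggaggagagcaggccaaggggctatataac
In ACTG2 the 2 CArG boxes begin 110 and 73 bases before the start. Those of ACTA2, each 1 letter off the motif, begin 121 and 71 bases before the start of the inner of its 2 windows. A match describes letters and not a bound site, and windows without one say nothing about SRF at those genes.

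TAGLN and CNN1, both actin binding proteins and markers of smooth muscle differentiation, lost most of their RNA in senescence. TAGLN (transgelin, or SM22 alpha), at chr11:117199370-117207464 on the plus strand, had lowest, median and highest levels of 1080, 1430 and 2399 CPM in DMSO_siNT, 124, 166 and 245 CPM in 4OHT_siNT, and 99.2, 125 and 166 CPM in 4OHT_siSMARCA4. The DMSO_siNT libraries lay far above the others, and the other groups overlapped. 4OHT_siNT retained 11.3% of the DMSO_siNT mean, a log2 difference of -3.14 ± 0.23 (adjusted p = 1.26e-09). With SMARCA4 siRNA the difference from 4OHT_siNT was -0.46 ± 0.21 (adjusted p = 0.188), and it passed the test among siRNA 2 libraries alone (-0.57, adjusted p = 0.0458), the 1 of 28 alternatives in which it did (0.0458 to 0.736). PCSK7 overlaps TAGLN on the other strand and had at most 2292 counts in a library, against 15153 to 27869 counts of TAGLN in DMSO_siNT and 1148 to 3399 in the senescent groups.

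CNN1 (calponin 1), at chr19:11538767-11550323 on the plus strand, binds actin and slows the myosin motor. Its lowest, median and highest levels were 54.3, 66.4 and 95.5 CPM in DMSO_siNT, 10.7, 10.9 and 12.8 CPM in 4OHT_siNT, and 12.8, 13.9 and 20.1 CPM in 4OHT_siSMARCA4. The senescent libraries all lay below the DMSO_siNT libraries. The 4OHT_siNT difference from DMSO_siNT was -2.61 ± 0.14 (log2, adjusted p = 2.04e-11), with 16.4% of the mean left. CNN1 was the gene with the most positive value under SMARCA4 siRNA, 0.40 ± 0.14 over 4OHT_siNT, which did not pass the test (adjusted p = 0.0705). Within VM sets that value was 0.54 and passed (adjusted p = 0.0421), and without DMSO_siNT replicate 4-2V it was 0.39 (adjusted p = 0.0275), and without DMSO_siNT replicate 2-2VM 0.40 (adjusted p = 0.0456). It passed in 6 of 28 alternatives, whose adjusted p ran from 0.0111 to 0.833.

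LMOD1 had the largest difference of the 9 tested genes in both comparisons with DMSO_siNT. Leiomodin 1 nucleates actin filaments in smooth muscle, and its gene lies at chr1:201896456-201946548 on the minus strand. Its lowest, median and highest levels were 35.7, 47.7 and 81.0 CPM in DMSO_siNT, 0.859, 1.14 and 2.08 CPM in 4OHT_siNT, and 0.394, 0.801 and 1.67 CPM in 4OHT_siSMARCA4. All senescent libraries lay below all DMSO_siNT libraries, with 2.27% of the DMSO_siNT mean left in 4OHT_siNT (log2 difference -5.45 ± 0.30, adjusted p = 2.06e-11). The senescent libraries held 5 to 30 counts of LMOD1 each, so the knockdown difference of -0.62 ± 0.36 (adjusted p = 0.297) rests on few counts.

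The tropomyosins and caldesmon, which cover and regulate the actin filament in muscle and non-muscle cells alike, were lower by smaller amounts. TPM1, at chr15:63042620-63071915 on the plus strand, had lowest, median and highest levels of 617, 836 and 1141 CPM in DMSO_siNT, 409, 460 and 562 CPM in 4OHT_siNT, and 378, 568 and 656 CPM in 4OHT_siSMARCA4. 4OHT_siNT lay wholly below DMSO_siNT (log2 difference -0.87 ± 0.17, adjusted p = 2e-04), and 4OHT_siSMARCA4 overlapped with both other groups. With SMARCA4 siRNA the TPM1 difference from 4OHT_siNT was 0.19 ± 0.16 (adjusted p = 0.515).

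CALD1 (caldesmon), at chr7:134744252-134970729 on the plus strand, had lowest, median and highest levels of 799, 1074 and 1640 CPM in DMSO_siNT, 504, 629 and 707 CPM in 4OHT_siNT, and 479, 513 and 676 CPM in 4OHT_siSMARCA4. Its senescent libraries lay below all DMSO_siNT libraries (log2 difference for 4OHT_siNT -0.94 ± 0.16, adjusted p = 7.36e-05) and overlapped with each other (knockdown difference -0.16 ± 0.16, adjusted p = 0.586).

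TPM2, at chr9:35681992-35690056 on the minus strand, had the highest level per length of the 10 genes in every group, 3506 CPM per kilobase of transcript in DMSO_siNT, 1502 in 4OHT_siNT and 1444 in 4OHT_siSMARCA4. In CPM its lowest, median and highest levels were 1497, 2635 and 11826 in DMSO_siNT, 1625, 1791 and 1980 in 4OHT_siNT, and 638, 1969 and 2290 in 4OHT_siSMARCA4. The highest value is that of DMSO_siNT replicate 4-2V, and the groups overlapped. The 4OHT_siNT difference was -1.22 ± 0.39 with all libraries (log2, adjusted p = 0.0137) and -0.56 without replicate 4-2V (adjusted p = 0.0583), where it was not called. Among siRNA 2 libraries alone it was -0.21 (adjusted p = 0.292), whereas within VM sets, where replicate 4-2V is absent, it was -0.82 and passed (adjusted p = 0.000186). TPM2 kept its call in 25 of 28 alternatives (adjusted p 8.54e-05 to 0.292). The TPM2 knockdown difference was -0.06 ± 0.39 (adjusted p = 0.95).

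MYL9, the regulatory light chain that myosin light chain kinase phosphorylates to start contraction, moved the least. Its gene lies at chr20:36541497-36551447 on the plus strand, and its lowest, median and highest levels were 926, 1360 and 1689 CPM in DMSO_siNT, 1013, 1075 and 1107 CPM in 4OHT_siNT, and 1029, 1083 and 1172 CPM in 4OHT_siSMARCA4. The DMSO_siNT range enclosed the ranges of both senescent groups. The 4OHT_siNT difference of -0.36 ± 0.12 passed the test (log2, adjusted p = 0.0155), but not in a fit of those 2 groups alone (adjusted p = 0.0554), with all genes of at least 1 count kept (adjusted p = 0.0609) or with siRNA 4 alone (-0.24, adjusted p = 0.422). It passed in the other 25 of 28 alternatives, the smallest adjusted p being 6.49e-05. SMARCA4 siRNA gave a difference of 0.01 ± 0.12 from 4OHT_siNT (adjusted p = 0.96).

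Per kilobase of transcript, using the Ensembl canonical transcript of each gene, the 10 genes kept the same leading gene but changed order in senescence. In DMSO_siNT the mean CPM per kilobase was, from the highest down, that of TPM2 (3506), TPM1 (706), MYL9 (493), TAGLN (419), ACTG2 (261), CALD1 (236), ACTA2 (220), CNN1 (46.4), LMOD1 (14.2) and MYH11 (0.0287). The ranges of TPM1, MYL9 and TAGLN overlapped with their neighbours, and so did those of ACTG2, CALD1 and ACTA2. In 4OHT_siNT the order was TPM2 (1502), TPM1 (386), MYL9 (385), CALD1 (123), ACTA2 (83.2), ACTG2 (58.8), TAGLN (47.4), CNN1 (7.61), LMOD1 (0.322) and MYH11 (0.0369). There the ranges of TPM1 and MYL9 overlapped, and the range of CALD1, 101 to 141 CPM per kilobase, lay above that of ACTA2, 77.0 to 91.0, which lay above that of ACTG2, 45.5 to 68.9, and the ranges of ACTG2 and TAGLN overlapped. In 4OHT_siSMARCA4, ACTG2 stood at 17.7 CPM per kilobase, below TAGLN at 34.4, and the ranges of both, 10.8 to 28.0 and 26.2 to 43.9, overlapped slightly. Transcript variants of TPM1, TPM2 and CALD1 that differ in length were not told apart in the counts. The order also depends on the lengths used, which were 3786 bases for TAGLN, 2786 for MYL9 and 1217 for TPM1. In CPM, without division by length, TAGLN (mean 1586) and MYL9 (1374) stood above TPM1 (859) in DMSO_siNT.

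Of the 9 genes tested, 9 were called lower in 4OHT_siNT than in DMSO_siNT, with a median log2 difference of -1.41. Of all 13136 genes, 52.8% were called in that comparison, 23.9% higher and 28.9% lower, and the median over all genes was -0.05. The 4OHT_siNT libraries lay wholly below those of DMSO_siNT for 7 of the 9, all but MYL9 and TPM2, and for 16.8% of all genes. Within VM sets, which held 3 DMSO_siNT libraries and all 6 of 4OHT_siNT, the 9 were again lower, from -0.54 (MYL9) to -5.40 (LMOD1).

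**Figure D2:**
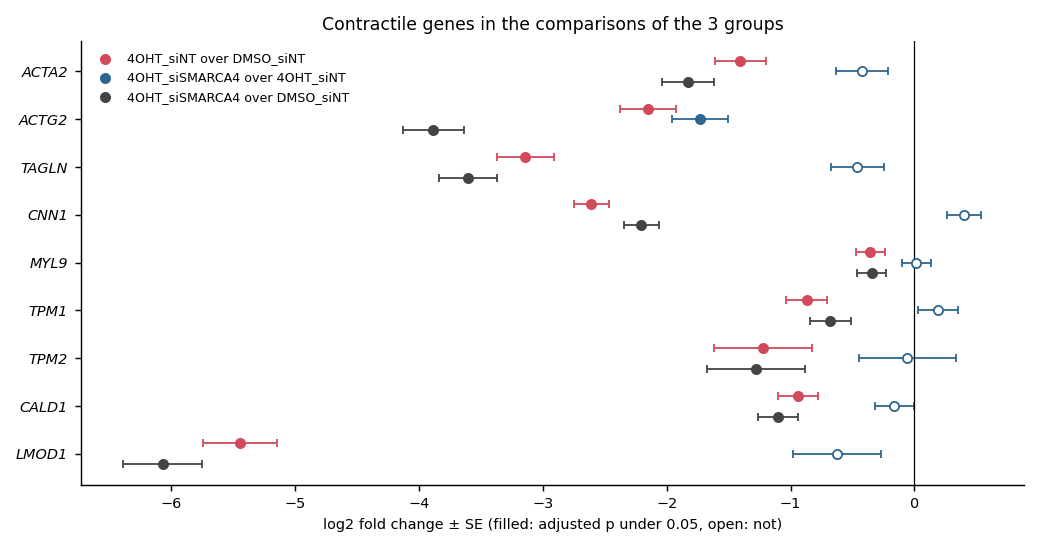
Log2 fold changes with their SE (horizontal axis) of the 9 tested contractile genes in the 3 comparisons, filled where the adjusted p was under 0.05. All points of the comparisons with DMSO_siNT lie left of 0, and under SMARCA4 siRNA in senescent cells ACTG2 is the filled point, at -1.73.

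With SMARCA4 siRNA in senescent cells 1 of the 9 genes was called, ACTG2, which was lower. The others did not pass the test, which does not show that they were unchanged. A count of 1 in 9 is near the share over all genes, of which 10.6% were called in this comparison, 4.99% higher and 5.65% lower. The median log2 difference was -0.16 for the 9 genes and 0.01 for all genes. The number of all genes called, 1397, moved to 3269 without DMSO_siNT replicate 4-2V, to 931 without 4OHT_siSMARCA4 replicate 2-3VM, to 923 without the unlabelled library and to 4 with siRNA 4 alone. Every 4OHT_siSMARCA4 library lay below every 4OHT_siNT library for 2 of the 9 genes, ACTG2 and ACTA2, and for 6.27% of all genes. Without each library in turn, ACTG2 was called in 18 of 18 fits, at -1.91 to -1.64. Within VM sets its value was -2.09 (adjusted p = 4.08e-05), or -2.04 with the unlabelled library included (adjusted p = 2.07e-06). The group 4OHT_siNT had no V libraries here, so V sets gave no value of their own, and in 4OHT_siSMARCA4 the means of ACTG2 were 31.5 CPM over 3 V libraries and 20.9 over 2 VM libraries.

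Against DMSO_siNT, a control group shared with the first comparison, 4OHT_siSMARCA4 also had lower levels of 9 of the 9 genes. Over all genes 50.5% were called there, 23.3% higher and 27.3% lower. The values beside those of 4OHT_siNT were -3.89 against -2.15 for ACTG2, -1.83 against -1.41 for ACTA2, -3.61 against -3.14 for TAGLN, -2.21 against -2.61 for CNN1 and -6.07 against -5.45 for LMOD1. For TPM1, TPM2, CALD1 and MYL9 they were -0.68, -1.28, -1.10 and -0.34, beside -0.87, -1.22, -0.94 and -0.36. Within VM sets the 9 genes were again lower, from -0.51 (MYL9) to -5.44 (LMOD1). V sets held 3 libraries of each of these groups, with means of 370 and 31.5 CPM for ACTG2, 236 and 83.5 for ACTA2, 1589 and 119 for TAGLN and 57.4 and 0.556 for LMOD1. In V sets every 4OHT_siSMARCA4 library lay below every DMSO_siNT library for 6 of the 9 genes and for 22.4% of all genes, and MYL9, TPM1 and TPM2 overlapped. MYL9 was not called without DMSO_siNT replicate 2-2VM (-0.28, adjusted p = 0.0568) or without 4-3VM (-0.28, adjusted p = 0.0547). It was not called either in a fit of these 2 groups alone (adjusted p = 0.0569), with all genes of at least 1 count kept (0.0991) or with siRNA 4 alone (0.318), and passed in 22 of 28 alternatives. TPM2 had a value of 0.031 among siRNA 2 libraries alone, so its direction there followed the siRNA 4 libraries.

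The siRNAs of a pair were also compared within each group, in a fit with 13659 genes. Of the 9 genes, 0 were called by edgeR between siNT 4 and siNT 2 in DMSO cells (4 at an unadjusted p under 0.05), in 4OHT cells (2 at that level) or between siSMARCA4_4 and siSMARCA4_2 (1 at that level). Over all genes these comparisons called 0.0512%, 0.0732% and 0.00732%, and 28.3%, 10.6% and 6.43% of all genes had an unadjusted p under 0.05. The smallest adjusted p among the members was that of TPM2 in DMSO cells, higher with siNT 4 by 1.55 ± 0.43 (log2, adjusted p = 0.0625). TAGLN in 4OHT cells had levels of 192, 235 and 245 CPM with siNT 2 and of 124, 140 and 141 CPM with siNT 4, without overlap (log2 difference -0.73 ± 0.24, adjusted p = 0.259). CALD1 in those libraries was at 700, 704 and 707 CPM with siNT 2 and at 504, 522 and 558 CPM with siNT 4 (-0.41 ± 0.19, adjusted p = 0.467). In 4OHT_siNT every siNT 4 library lay below every siNT 2 library for 5 of the 9 genes, ACTA2, TAGLN, TPM1, CALD1 and LMOD1, and for 20% of all genes, and none of the 5 passed the test.

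Within groups, the contractile genes did not move as 1 block from library to library. Over all 18 libraries, with each group's mean log2 CPM subtracted, Pearson's r between pairs of the 9 genes ran from -0.77 (ACTG2 and TPM2) to 0.93 (TAGLN and CALD1), with a median of 0.364, and was positive in 27 of 36 pairs. ACTA2 went with MYL9 (0.77), ACTG2 (0.76) and CNN1 (0.68), and TAGLN went with CALD1, TPM1 (0.57) and TPM2 (0.56). These values share libraries, scaling and depth, and TPM2 carries the high library DMSO_siNT 4-2V, so they are given as a description. The 5 other genes closest to the mean of the members, of 11505 with a mean log2 CPM above 1, were CCDC126 (r = 0.806), MACROH2A1 (0.803), AMIGO2 (0.788), WFDC1 (0.778) and PLCB4 (0.774).

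**Figure D3:**
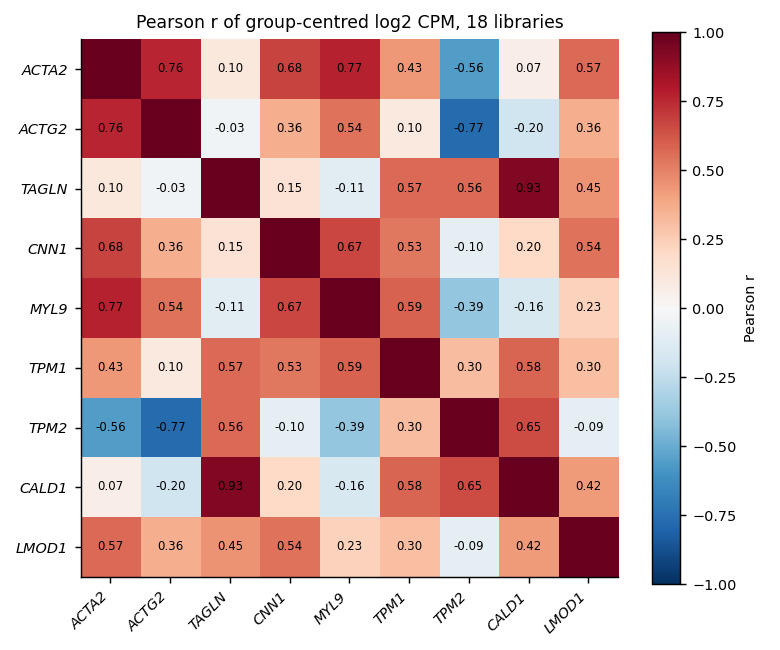
Pearson's r of log2 CPM between the 9 tested contractile genes over 18 libraries, after each group's mean was subtracted, on a colour scale from -1 to 1. The darkest red off the diagonal is TAGLN with CALD1 (0.93) and the darkest blue is ACTG2 with TPM2 (-0.77).

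Of 7 genes for SRF and the cofactors that choose its targets, 1 was higher and 2 were lower in 4OHT_siNT, with a median of 0.11. Over all genes 23.9% were higher and 28.9% lower in that comparison. SRF itself was at 75.7 ± 18.1 CPM (SD, n = 6) in DMSO_siNT, 90.3 ± 7.4 in 4OHT_siNT and 102 ± 7.0 in 4OHT_siSMARCA4, and 4OHT_siNT did not pass the test against DMSO_siNT (0.25 ± 0.14, adjusted p = 0.13). MYOCD (myocardin), the cofactor of mature smooth muscle, was low at 3.28 ± 1.00, 2.37 ± 0.63 and 2.10 ± 1.05 CPM (4OHT_siNT difference -0.46 ± 0.31, adjusted p = 0.225). MRTFA, a myocardin relative held in the cytoplasm by free actin, was at 46.6 ± 17.8, 57.5 ± 2.8 and 46.0 ± 5.0 CPM and did not pass either (0.30 ± 0.22, adjusted p = 0.27). Its relative MRTFB was lower in 4OHT_siNT (-0.78 ± 0.22, adjusted p = 0.00612). Between 4OHT_siSMARCA4 and DMSO_siNT, SRF was higher by 0.43 ± 0.14 (adjusted p = 0.013). Their ranges overlapped, with a highest level of 93.0 CPM in DMSO_siNT and a lowest of 91.8 in 4OHT_siSMARCA4. DMSO_siNT replicate 4-2V held the lowest DMSO_siNT levels of SRF (41.1 CPM, group median 80.2) and MRTFA (13.1 CPM, group median 53.2).

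The ternary complex factors ELK1, ELK3 and ELK4 pair with SRF at growth factor responsive genes, where they compete with the myocardin family. In 4OHT_siNT, ELK1 was higher (0.60 ± 0.21, adjusted p = 0.0189), ELK3 was lower (-0.70 ± 0.10, adjusted p = 1.02e-05), and ELK4 did not pass (0.11 ± 0.13, adjusted p = 0.529). Levels of ELK1 ran from 18.3 to 68.8 CPM in DMSO_siNT, with a median of 57.4, and from 73.9 to 95.1 in 4OHT_siNT. Under SMARCA4 siRNA the smallest adjusted p among SRF, MYOCD, MRTFA, MRTFB and the ELK genes was 0.0734, for ELK3 (0.29 ± 0.10). RNA levels do not report where the MRTF proteins sit in the cell.

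Immediate early genes are the other class of SRF targets. Of 8 listed, 7 were higher in 4OHT_siNT and 1 was lower, beside 23.9% higher and 28.9% lower over all genes. The largest differences were those of the transcription factors EGR3 (3.73 ± 0.24, adjusted p = 1.94e-10), EGR2 (3.19 ± 0.34, adjusted p = 2.18e-07), the survival protein MCL1 (1.92 ± 0.15, adjusted p = 2.03e-09) and the AP-1 subunit FOSB (0.78 ± 0.21, adjusted p = 0.00432). EGR3 and EGR2 were near the floor in DMSO_siNT, so the sizes of their differences rest on few counts there. Their DMSO_siNT means were 1.28 CPM (6 to 34 counts per library) and 1.14 CPM (5 to 20), against 17.4 and 10.4 CPM in 4OHT_siNT. FOS was the 1 that was lower (-0.67 ± 0.22, adjusted p = 0.0165). The groups overlapped for FOS, FOSB, EGR1 and JUNB. EGR1 (0.50 ± 0.21, adjusted p = 0.0499) passed the test only just, and JUNB had an adjusted p of 0.036 (0.73 ± 0.28). SMARCA4 siRNA lowered 1 of the 8, EGR2, by -1.06 ± 0.30 (adjusted p = 0.026), where 5.65% of all genes were lower.

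**Figure D4:**
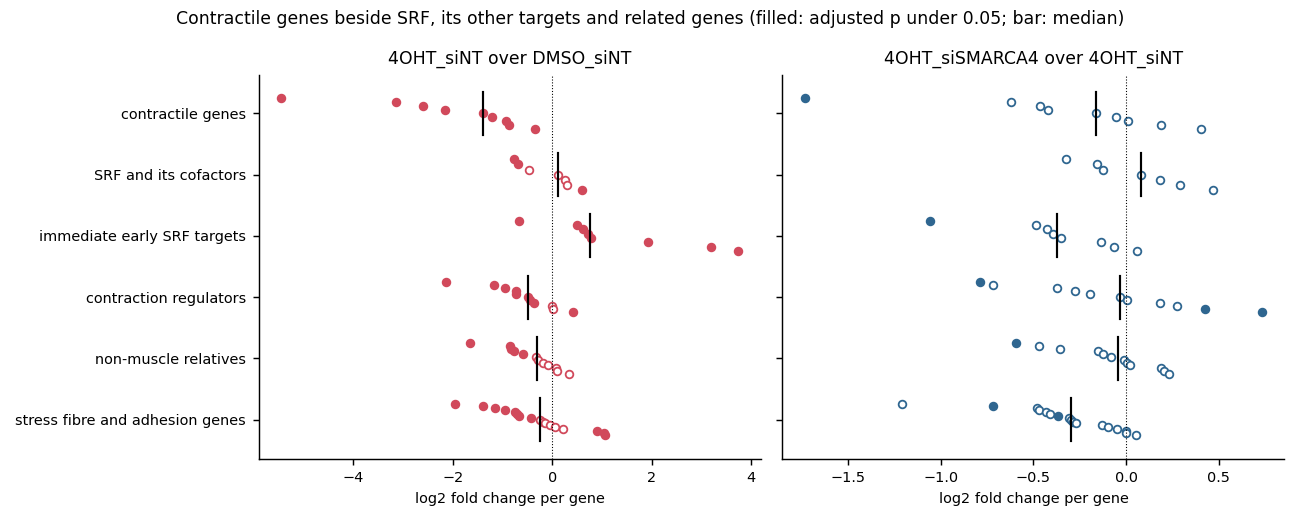
Log2 fold change per gene (horizontal axis) for the contractile genes, SRF and its cofactors and 4 related gene lists, in 4OHT_siNT over DMSO_siNT (left) and 4OHT_siSMARCA4 over 4OHT_siNT (right). Filled points had an adjusted p under 0.05 and bars are medians, -1.41 for the contractile genes and 0.75 for the immediate early genes on the left.

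Of 11 genes that regulate contraction, 8 were lower and 1 was higher in 4OHT_siNT, with a median of -0.49, where 28.9% of all genes were lower and 23.9% higher. MYLK, the kinase that activates myosin through MYL9, was at 751 ± 233, 331 ± 22.7 and 191 ± 38.8 CPM in DMSO_siNT, 4OHT_siNT and 4OHT_siSMARCA4. It was lower in 4OHT_siNT (-1.18 ± 0.18, adjusted p = 1.99e-05) and lower again with SMARCA4 siRNA (-0.79 ± 0.18, adjusted p = 0.00785), with no overlap between groups. PPP1R14A, an inhibitor of myosin phosphatase, was lower by -2.14 ± 0.44 in 4OHT_siNT (adjusted p = 0.00047), though at 3.66 CPM or less in the mean of any group. Also lower was PPP1R12A, the targeting subunit of that phosphatase (-0.96 ± 0.18). With SMARCA4 siRNA 1 of the 11 was lower, MYLK, and 2 were higher, RND3 (0.73 ± 0.14, adjusted p = 0.00245) and the phosphatase subunit PPP1CB (0.43 ± 0.11, adjusted p = 0.0195). Over all genes 5.65% were lower and 4.99% higher there.

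Relatives of the contractile proteins found in non-muscle cells were called in 5 of 12 cases in 4OHT_siNT, all lower, with a median of -0.31. Over all genes 52.8% were called and 28.9% were lower. The 5 were MYH10 (-1.66 ± 0.16), CNN2 (-0.86 ± 0.14), MYL6 (-0.83 ± 0.28), CNN3 (-0.78 ± 0.15) and the cytoplasmic actin ACTB (-0.60 ± 0.11). The groups overlapped for MYL6 and CNN3. MYL6 had a median of 1634 and a highest level of 5696 CPM in DMSO_siNT, and a median of 1344 CPM in 4OHT_siNT. TPM3, TPM4, TAGLN2 and MYH9 did not pass, at 0.08 ± 0.14, -0.29 ± 0.23, 0.32 ± 0.22 and 0.09 ± 0.26. Under SMARCA4 siRNA 1 of the 12 was lower, MYH10 (-0.60 ± 0.16, adjusted p = 0.0241), beside 5.65% of all genes.

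Among 17 genes of stress fibres and adhesions, 8 were lower and 3 higher in 4OHT_siNT, with a median of -0.24. These 11 of 17 stand beside the 52.8% of all genes called in either direction. The lower ones included SYNPO2 (-1.95 ± 0.41) and LIMA1 (-0.96 ± 0.11), which bind actin bundles, and CCN1 (-1.40 ± 0.14) and CCN2 (-1.16 ± 0.12), secreted proteins that cells under tension produce. SYNPO2 was near the floor, with means of 2.36 CPM in DMSO_siNT (6 to 40 counts per library) and 0.598 in 4OHT_siNT (6 to 10 counts). Its ranges in these groups overlapped. The higher ones were PDLIM1 (1.06 ± 0.15), PXN (1.05 ± 0.23) and SMTN (0.91 ± 0.23), the last of which encodes smoothelin, an actin binding protein of smooth muscle. With SMARCA4 siRNA 2 of the 17 were lower, PALLD (-0.72 ± 0.15, adjusted p = 0.00401) and LIMA1 (-0.37 ± 0.11, adjusted p = 0.0432), beside 5.65% of all genes.

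Markers of cell types moved with the groups to some extent. Of the 9 fibroblast markers 5 were lower in 4OHT_siNT, among them DCN (-5.17 ± 0.21), where 28.9% of all genes were lower. With SMARCA4 siRNA, where 5.65% of all genes were lower, 6 of the 9 were, among them COL1A2 (-1.46 ± 0.24) and COL1A1 (-1.42 ± 0.28). The summed level of the 9 lay between 11873 and 31616 CPM in DMSO_siNT libraries, between 15091 and 20015 in 4OHT_siNT and between 8751 and 12737 in 4OHT_siSMARCA4. Smooth muscle and pericyte markers other than the contractile genes passed the filter in 5 of 6 cases and summed to 143 to 653, 306 to 451 and 156 to 333 CPM. MCAM was the 1 of them called, lower in 4OHT_siNT (-0.61 ± 0.24, adjusted p = 0.0402) and with SMARCA4 siRNA (-1.15 ± 0.24, adjusted p = 0.00473). The 4 endothelial markers, of which VWF passed the filter and was higher in 4OHT_siNT (1.23 ± 0.28, adjusted p = 0.00121), summed to at most 5.78 CPM in any library and the 4 epithelial markers to at most 2.51, while the 4 immune markers, of which only CD68 passed the filter, summed to 45.2 to 74.9. The part of any of these in the contractile gene differences was not tested.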

How the data were processed

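The authors deposited raw gene counts, 1 column per library and sequencing lane, without normalization. According to the study's methods and the labels, polyadenylated RNA was made into directional libraries, and the submitters' processing notes name STAR 2.7.8a, DESeq2 1.36.0 and build hg38. The counting program, its annotation and its use of strand are not given in the sources used here. The 36 columns, 2 lanes per library, were summed to 18 libraries, 17 of them matched to the 29 labelled samples by title, and 1, whose column names siRNA 2 and set 1VM, to a group only. The remaining samples were not analysed here. Lanes differed by a chi-square per degree of freedom of 1.19 to 1.27 and 45 within-group pairs of libraries by 2.33 to 315, so none were merged.

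Genes were filtered with filterByExpr of edgeR 4.0.16 in R 4.3.3 (minimum count 10), which kept 13136 genes with 99.9% of counts, and scaled by TMM. The main test was the quasi-likelihood test with all 18 libraries and no covariate, Benjamini-Hochberg adjusted over all genes. The biological coefficient of variation was 23.3%. Levels are CPM on the TMM scale (prior count 2 for log2 values). Standard errors came from the F statistic. The steps were tested on simulated data. The members and gene lists were chosen with earlier results of these data known. Named outside the members were SMARCA4, SRF and its cofactors, and up to 4 called genes of each list by size of change. Beyond that rule, chosen after their values were seen, are list genes given to show values that did not pass, were called in the opposite direction or made up a small count, and marker sums. Gene positions are from GENCODE on GRCh38, promoters from RefSeq. The main test did not pair libraries by set name. Deviations of libraries with the same set name in different groups had r of -0.28 to 0.229 over 7 pairs. For set 3VM the values were 0.229, 0.178 and 0.162. Alternatives were 28 per comparison, including DESeq2 1.42.0. VM sets with the unlabelled library were added after seeing the data. The members with the fewest counts were MYH11 (0 to 8 per library) and, in senescent cells, LMOD1 (5 to 30).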

Additional observations from a re-analysis of the deposited data

How the results depend on the processing

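Of 28 alternatives for each of 9 genes, 246 of the values for 4OHT_siNT over DMSO_siNT kept direction and call and 6 lost the call (MYL9 and TPM2). For SMARCA4 siRNA 233 kept both, 8 gained a call, 1 lost it and 10 changed sign, and for 4OHT_siSMARCA4 over DMSO_siNT 244 kept both, 7 lost the call and 1 changed sign. The set name as a replicate block gave 4356 genes called in the first comparison (6935 without it) and 236 for SMARCA4 siRNA (1397 without it). What the libraries of a set share is not stated. With this block TPM2 lost its call in 4OHT_siNT over DMSO_siNT (adjusted p = 0.136). In 4OHT_siSMARCA4 over DMSO_siNT, TPM2 (adjusted p = 0.107) and MYL9 (0.134) lost theirs. ACTG2 kept its call under SMARCA4 siRNA (adjusted p = 0.0275). With SMARCA4 siRNA the number of all genes called was 2858 in VM sets, 4064 with the unlabelled library added, 3405 with only these 2 groups fitted, 3429 with siRNA 2 alone and 4 with siRNA 4 alone, and 923 to 3269 when each library was left out in turn (3269 without DMSO_siNT replicate 4-2V, 931 without 4OHT_siSMARCA4 replicate 2-3VM and 923 without the unlabelled library). Contractile genes called higher numbered 1 (CNN1) in VM sets, with the unlabelled library added, in the 2-group fit and with siRNA 2, and 0 to 1 with each library left out. Those called lower numbered 2 in the 2-group fit (ACTA2 joined) and with siRNA 2 (TAGLN joined) and 0 with siRNA 4. With siRNA 4 alone the median of the 9 genes was -1.81 in the first comparison and -2.18 for 4OHT_siSMARCA4 over DMSO_siNT, where 4119 genes were called in place of 6635. Changes of sign were all of uncalled values near 0 under SMARCA4 siRNA, except TPM2 over DMSO_siNT with siRNA 2 alone (0.031). MYL9 was at -0.00023 with DESeq2 size factors, -0.00022 with DESeq2, -0.069 with siRNA 4 alone and -0.019 to 0.025 with a library left out. TPM2 was at 0.20 in VM sets, 0.21 with the unlabelled library added, 0.24 with siRNA 2 alone and -0.16 to 0.11 with a library left out. The causes were not tested.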
